A study of Mus musculus with 2 samples.

Results

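Syndecans and glypicans are the main families of heparan sulphate proteoglycans on the cell surface. They were followed here as 8 genes, Sdc1, Sdc2, Sdc3, Sdc4, Gpc1, Gpc3, Gpc4 and Gpc6, in primary osteoblasts, the bone-forming cells, under low and high phosphate. The members were all probe sets whose annotation named 1 of these genes and no other, which gave 22 of the 45037 mouse probe sets on the array and 8 of the 18193 genes named. Cells came from the calvariae (skull caps) of C57BL/6 mice aged 5 days, were grown for 3 days in medium with 10% serum and were kept without serum overnight. They then spent 6 h in fresh serum-free a-MEM. The control group had 1 mM phosphate at pH 7.2. In the phosphate group, a 0.5 M stock of sodium phosphate, also buffered to pH 7.2, brought the medium to 4 mM, so that sodium was added too. Total RNA of each group was measured on 1 Affymetrix array.

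A heparan sulphate proteoglycan is a core protein that carries long, sulphated sugar chains. The chains bind growth factors, morphogens, chemokines and matrix proteins, hold them at the cell surface and present them to their receptors, and FGF signalling depends on them as co-receptors. Syndecans cross the membrane and have short cytoplasmic tails that bind PDZ proteins and the cytoskeleton. Glypicans have no cytoplasmic part and are held to the outer face of the membrane by a glycosylphosphatidylinositol (GPI) anchor. In bone, the chains can affect how far FGF, BMP, Wnt and hedgehog ligands spread among osteoblasts.

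Signals are given in MAS5 intensity units, in which 1 value summarises the probes of a probe set and every array is scaled to the same average. Signals of different probe sets cannot be set against each other, because probes differ in how well they bind. Differences are given as log2 ratios, 4 mM minus 1 mM phosphate. A probe set counts as measured if its signal passed a floor of 21.5, the pooled median of both arrays, on at least 1 array. Each group was 1 array without replicates, so differences could not be tested between conditions. Precision is limited by the number of arrays. The only error that could be estimated was the spread of log2 ratios between probe sets of 1 gene, called technical here. Its SD was 0.16 where the dimmer signal was above 400, 0.26 between 100 and 400, and 0.42 below 100. It holds nothing of the spread between cultures, or of labelling and hybridisation shifts shared by a whole array. Differences between transcripts of 1 gene can enter it. In bulk RNA, fewer cells of a type and less RNA per cell cannot be told apart.

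Osteoblast markers were bright on both arrays. All 10 measured of 14 listed lay within 1.5-fold, with a median log2 ratio of 0.00. So did 80.61% of all measured genes, and 93.06% of measured probe sets with a dimmer signal above 400. For 4 markers there was no probe set specific to them. The 3′ to 5′ signal ratio of actin, a measure of RNA integrity, was 1.36 in the control and 1.43 in phosphate. Poly-A spikes, bacterial RNAs that enter a sample before labelling, had a median log2 ratio of 0.46 over 24 probe sets, with all 24 above 0. Hybridisation spikes, added after labelling, had a median of 0.23 over 18 probe sets, again all above 0.

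Regulatory sequence is shown first for 3 syndecan genes, because the results turn on the contrast between Sdc4 and Sdc1, which were higher in phosphate, and Sdc3, whose brightest probe set gave nearly the same signal on both arrays. Each sequence is the 250 bases before the annotated start of the gene, 5′ to 3′ on the gene's own strand, from RefSeq on build GRCm38.p6. Capitals mark GC boxes (GGGCGG on either strand) and matches to the NF-kB consensus. Positions are chr2:164443189-164443438 (minus strand) for Sdc4, chr12:8771146-8771395 (plus strand) for Sdc1 and chr4:130792287-130792536 (plus strand) for Sdc3.
Sdc4: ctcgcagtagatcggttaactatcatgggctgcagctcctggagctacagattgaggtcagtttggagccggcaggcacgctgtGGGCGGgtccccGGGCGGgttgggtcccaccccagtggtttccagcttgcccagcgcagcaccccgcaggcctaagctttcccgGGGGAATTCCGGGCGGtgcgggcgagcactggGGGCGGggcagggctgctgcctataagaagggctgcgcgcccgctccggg
Sdc1: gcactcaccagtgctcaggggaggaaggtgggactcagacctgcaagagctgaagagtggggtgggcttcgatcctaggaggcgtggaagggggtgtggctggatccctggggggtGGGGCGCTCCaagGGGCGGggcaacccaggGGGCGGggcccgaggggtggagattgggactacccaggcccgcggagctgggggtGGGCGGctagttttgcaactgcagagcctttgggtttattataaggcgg
Sdc3: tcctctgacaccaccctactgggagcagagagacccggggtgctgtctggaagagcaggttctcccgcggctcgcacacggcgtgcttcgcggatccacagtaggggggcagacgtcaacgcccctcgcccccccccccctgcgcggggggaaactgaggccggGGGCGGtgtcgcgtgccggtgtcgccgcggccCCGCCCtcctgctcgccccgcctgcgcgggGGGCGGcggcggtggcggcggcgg
The promoter table held entries for 5 of the 8 members, these 3 with Gpc3 and Gpc4. GC boxes numbered 4 in Sdc4, 3 in Sdc1, 3 in Sdc3, 3 in Gpc3 and 1 in Gpc4. Of all 32851 windows of this length, 32.7% held at least 1. The NF-kB consensus had 1 match in Sdc4, starting 82 bases before the start and running straight into a GC box, and 1 in Sdc1, starting 134 bases before it. Sdc3, Gpc3 and Gpc4 had 0 matches in this window, and 7.25% of all windows had one. None of the 5 windows held the AP-1 element TGANTCA (6.75% of all windows), the cAMP response element TGACGTCA (1.55%) or the EGR element GCGGGGGCG (2.57%), each searched on both strands. The 5 windows were 66.0% to 76.4% G and C, above the median of 52.4% over all windows. The shares over all windows were not matched for this. These are matches of letters, not measured binding, and the motifs were chosen with the values known.

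All 8 genes were measured. Of the 22 probe sets, 20 passed the floor on each array. The other two, 1 of Sdc2 and 1 of Gpc6, were below it throughout. Taking the brightest probe set of each gene, 2 of 8 genes (Sdc1 and Sdc4) were at least 1.5-fold higher in 4 mM phosphate, against 7.26% of all 12276 measured genes, and 0 of 8 were at least 1.5-fold lower, against 12.1%. At 2-fold, 1 member (Sdc4) was higher, against 2.3% of genes, and 0 were lower, against 2.92%. These shares cover dim and bright genes, and ratios spread less among bright probe sets. The brightest probe sets of the 8 members gave 397 or more on both arrays. Of measured probe sets with a dimmer signal above 400, 93.06% lay within 1.5-fold in either direction. The median over the 8 members was −0.05, close to the −0.06 of all measured genes. Both members past 1.5-fold were syndecans. For Sdc1 this rested on the choice of probe set, since its next brightest had 0.53, short of 1.5-fold.

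**Figure D1:**
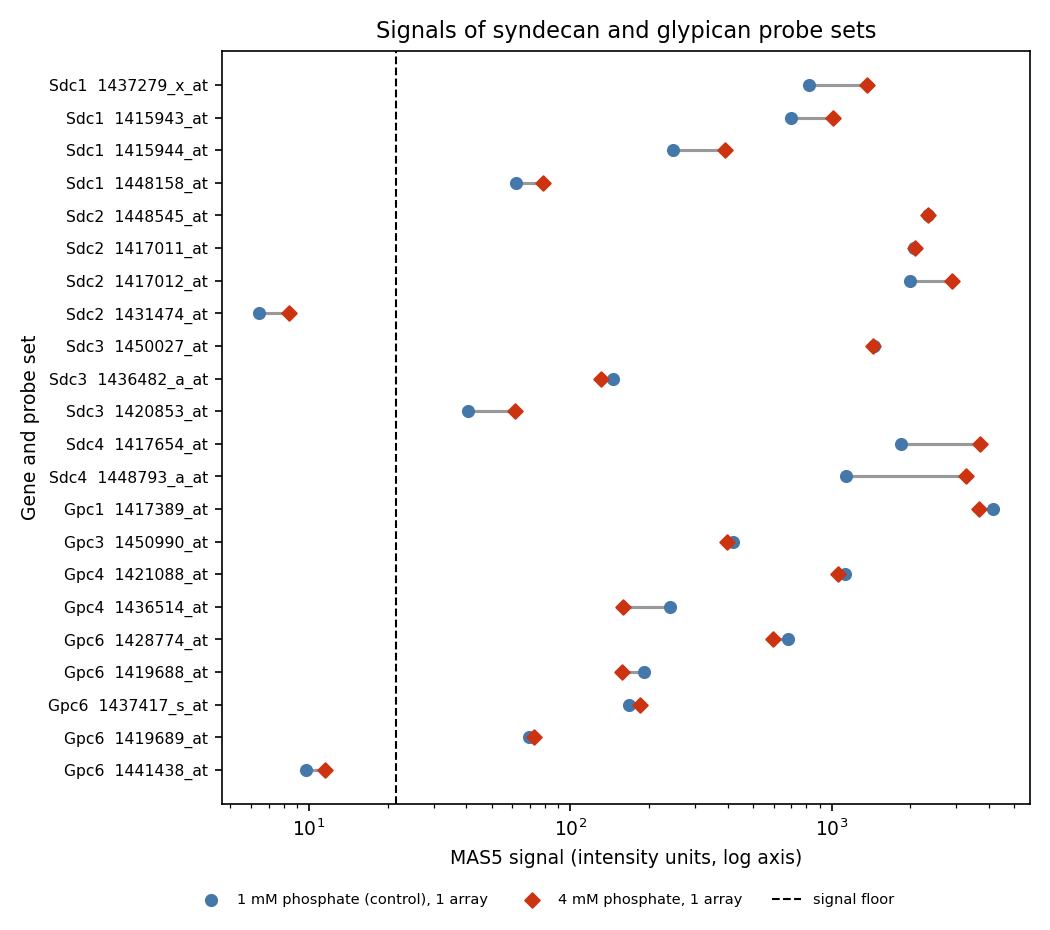
Signal of each syndecan and glypican probe set (rows) on the control array (1 mM phosphate, circles) and the phosphate array (4 mM, diamonds), in MAS5 intensity units on a log axis, with the signal floor of 21.5 as a dashed line. Both Sdc4 rows and all 4 Sdc1 rows have the diamond to the right of the circle, while the brightest rows of each glypican have it slightly to the left.

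Sdc4 encodes syndecan-4, a widely expressed syndecan that sits in focal adhesions and acts beside integrins. Its brighter probe set went from 1845 in the control to 3711 in phosphate, and its other probe set went from 1131 to 3278. The phosphate array was higher on both, by log2 ratios of 1.01 (2.01-fold) and 1.54 (2.90-fold). Both exceeded the technical SD of 0.16 for probe sets this bright, which holds nothing of the spread between cultures. Among all measured genes, 2.23% had a higher ratio than the brighter probe set. Every measured probe set was 1.5-fold higher or more for 3.01% of the 5606 genes that had several, and 1.5-fold lower or more for 2.91%. Among the 6 members with several, Sdc4 met the first condition and 0 met the second. The 2 values for Sdc4 differed by 0.53, more than the median range of 0.25 over 3026 genes with 2 probe sets above the floor, so its size depended on the probe set.

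Sdc1 encodes syndecan-1, known from epithelia and plasma cells and also made by mesenchymal cells. Its 4 probe sets went from 816 to 1361, from 700.5 to 1009, from 248 to 390.3 and from 62.2 to 78.6. All were higher on the phosphate array, by log2 ratios of 0.74, 0.53, 0.65 and 0.34 in that order. The agreement in direction covers signals from dim to bright, but the dimmest value, 0.34, was within its technical SD of 0.42. The size stood close to the 1.5-fold limit, which is 0.58 on the log2 scale. The probe set with 0.74 is of the type marked x_at, whose probes may also match other transcripts. The next brightest, of the plain type, was the one with 0.53, short of 1.5-fold.

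Markers of the cell types best known for Sdc1 were counted on the same arrays. Among epithelial and keratinocyte markers, 3 of 10 (Krt14, Krt19 and Dsp) were at the floor on both arrays, and the summed signal of the 10 was 290.3 in the control and 309 in phosphate. Within that list Krt18 went from 40.1 to 75.2 and Cdh1 from 63.3 to 31.6, both dim, and Epcam gave 70.7 and 62.7. Among plasma and B cell markers, 4 of 7 with a probe set (Cd79a, Cd79b, Jchain and Ms4a1) were at the floor on both arrays. Mzb1, at the floor in the control, reached 36.4, Ighm gave 59.8 and 51.2, and Xbp1, which secreting cells of many kinds express, gave most of the summed signal of 5724 and 5160.

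Sdc2 encodes syndecan-2, a syndecan of mesenchymal cells including osteoblasts. Its 3 measured probe sets did not give the same answer. One went from 1997 to 2883, a log2 ratio of 0.53, while the others went from 2329 to 2337 and from 2072 to 2088, both with log2 ratios of 0.01. All 3 were bright, with a technical SD of 0.16. The probe set with 0.53 was the brightest over both arrays but the dimmest of the 3 in the control, so the value given to Sdc2 as a gene turned on how the probe set was chosen, and was 0.01 with the brightest on the control array. Such disagreement was not rare, since 38.6% of 1230 genes with 3 probe sets passing the floor on each array had a range at least as wide. The remaining Sdc2 probe set was at 6.44 and 8.38, below the floor.

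Sdc3 encodes syndecan-3, best known from the nervous system and from skeletal development. Its brightest probe set gave 1458 in the control and 1436 in phosphate, a log2 ratio of −0.02. A second went from 146 to 131 (−0.15), and a dimmer one from 40.6 to 61.5 (0.60) where the technical SD was 0.42. The bright signals were alike on both arrays, and the dim probe set alone passed 1.5-fold.

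**Figure D2:**
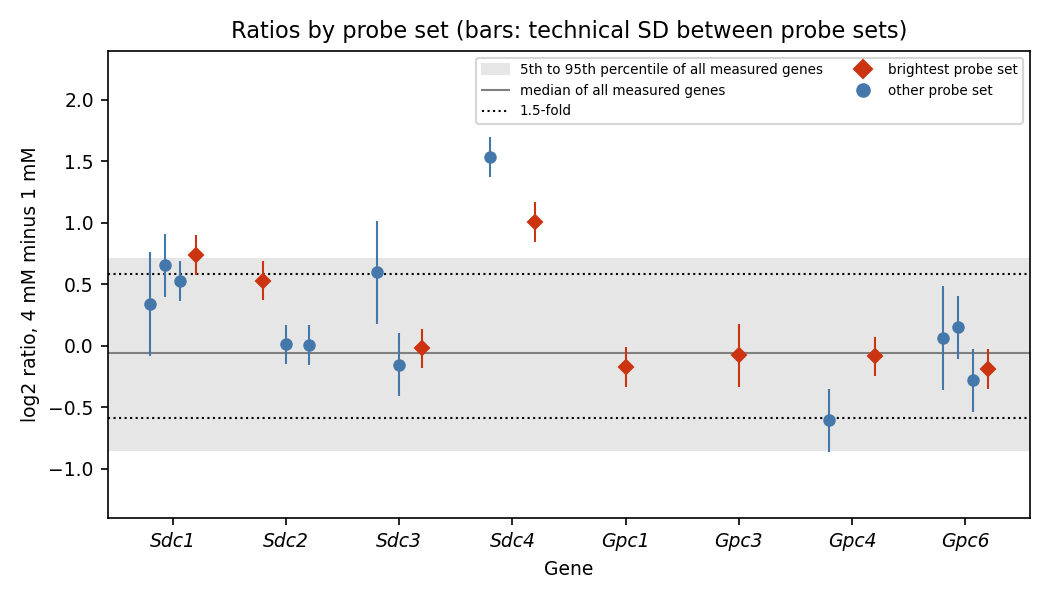
Log2 ratio (4 mM minus 1 mM phosphate) of each measured probe set by gene, with the brightest probe set of a gene as a diamond and bars for the technical SD at its signal; the grey band is the 5th to 95th percentile of all measured genes (−0.85 to 0.71). Both Sdc4 values and the brightest Sdc1 value lie above the band, 1 Sdc2 value stands apart from the other 2, and every glypican value lies inside the band. For measured probe sets with a dimmer signal above 400, the same percentiles were narrower, at −0.505 and 0.505.

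The glypicans differed less. Gpc1, the glypican found most widely in adult tissues, went from 4147 to 3679 on its single probe set, a log2 ratio of −0.17. Gpc3, the glypican whose loss causes an overgrowth syndrome with skeletal changes, went from 418 to 397 on its single probe set (−0.08). Both differences were about the size of the technical SD or below it.

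Gpc4 had 2 probe sets, of which the brighter went from 1125 to 1059 (−0.09) and the dimmer from 241 to 158 (−0.61, or 1.52-fold lower). Both were lower on the phosphate array, and the dimmer one was the only glypican probe set past 1.5-fold. Gpc6, a close relative of Gpc4, went from 678 to 595 on its brightest probe set (−0.19). Its other measured probe sets went from 191 to 158 (−0.28), from 167 to 186 (0.15) and from 69.8 to 72.9 (0.06), so that 2 of 4 were lower and 2 higher. The remaining Gpc6 probe set was below the floor with 9.72 and 11.5.

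The remaining glypicans, Gpc2 and Gpc5, had no measured value. The probe set of Gpc2 gave 12.2 and 9.54, and that of Gpc5 gave 1.43 and 17.0, all below the floor. A probe set annotated to both Gpc2 and Gal3st4 gave 195 and 151, which cannot be assigned to either gene.

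Set side by side, the 4 syndecans had log2 ratios of −0.02 to 1.01 with a median of 0.63, and the 4 glypicans −0.19 to −0.08 with a median of −0.13. Over probe sets, 10 of 12 for syndecans were above 0, which includes Sdc2 values of 0.005 and 0.011, and 6 of 8 for glypicans were below 0. All measured probe sets had medians near 0, at 0.018 where the dimmer signal was below 100, −0.069 at 100 to 400 and 0.005 above 400. At 1.5-fold, 5 syndecan probe sets were higher and 0 lower, and 0 glypican probe sets were higher and 1 lower. Of all 24159 measured probe sets, 9.36% were higher and 10.6% lower. The 5 came from Sdc1, Sdc4 and the dim probe set of Sdc3, and probe sets of the same gene are not independent. The families overlapped at the level of probe sets, since the syndecan values reached down to −0.15 and the glypican values up to 0.15. With the median over the probe sets of each gene, the syndecan median was 0.30 and the glypican median −0.12. With the poly-A spikes set to equal signal, log2 ratios of probe sets well above the floor moved down by 0.46. The medians became 0.17 and −0.59, with Sdc4 at 0.55 and Sdc1 at 0.28, so neither passed 1.5-fold. Both stayed above 0, which was fixed in advance because their main ratios were larger than 0.46. On that scale Gpc1 and Gpc6, at −0.64 and −0.65, were at least 1.5-fold lower. So were 4965 of all 11876 measured genes, whose median was −0.51.

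**Figure D3:**
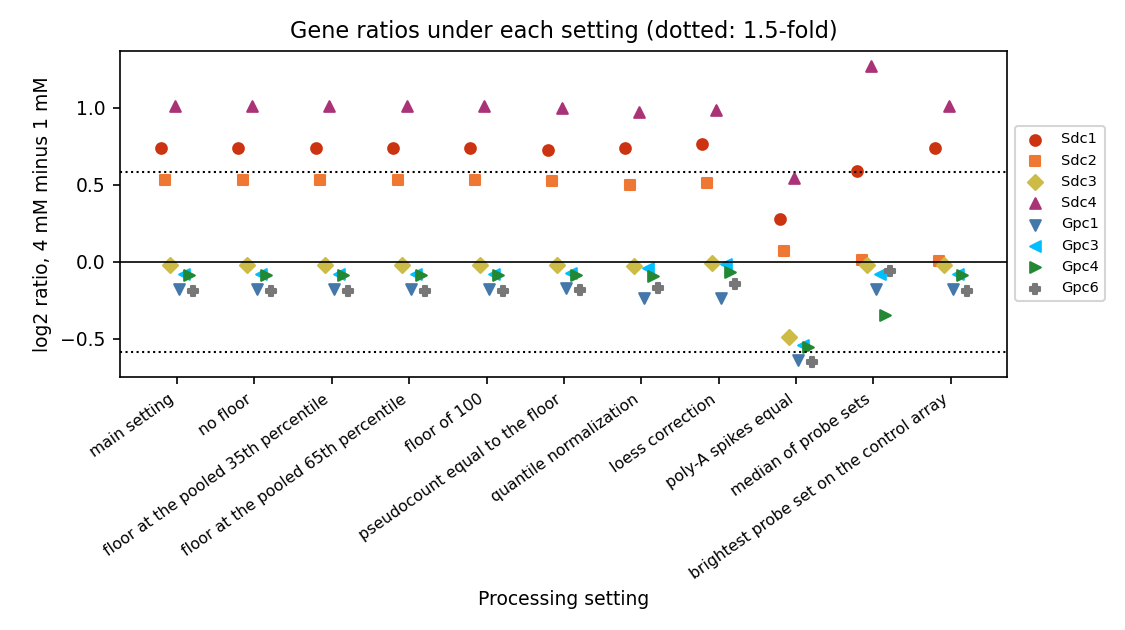
Log2 ratio (4 mM minus 1 mM phosphate) of each member gene (symbols) under the main setting and 10 alternatives, with 1.5-fold as dotted lines. Sdc4 is highest of the 8 in every column, the poly-A spike scaling lowers all 8 together, and Sdc2 falls to 0.01 when the probe set is chosen on the control array or the median of probe sets is used.

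In the RefSeq gene table of GRCm38.p6, Gpc3 and Gpc4 are neighbours on the X chromosome, and Gpc6 lies next to Gpc5 on chromosome 14. Gpc3 and Gpc4 had nearly equal log2 ratios on their brightest probe sets (−0.08 and −0.09), while Gpc5 was below the floor and Gpc6 above it. Laptm4a, a neighbour of Sdc1 on chromosome 12, had a log2 ratio of 0.14, below that of Sdc1, and Sys1 beside Sdc4 had 0.01. Laptm5, a lysosomal gene of blood cells beside Sdc3, went from 341.5 to 226 (−0.60).

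Genes linked to heparan sulphate proteoglycans were described from 11 lists, called heparan sulphate lists here. They held 112 entries, of which 94 were measured, 14 were at the floor on both arrays and 4 had no probe set naming only them. The 94 include genes not specific to heparan sulphate, with 15 of chondroitin and dermatan sulphate synthesis, 12 of shedding and 20 syndecan partners. Of the 94, 7 (7.45%) reached 1.5-fold higher and 6 (6.38%) 1.5-fold lower, beside 7.26% and 12.1% of all measured genes, and their median log2 ratio was −0.07. The share of higher genes in this pooled set was close to that of all genes. With the poly-A spikes as reference the medians of all these lists were below 0.

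Among core proteins that are secreted or that carry chains only at times, 2 of 10 measured were at least 1.5-fold higher and 0 lower, with a median of 0.14. Cd44, a hyaluronan receptor of which some splice forms carry heparan sulphate, went from 1443 to 4067, with log2 ratios of 1.49, 1.31 and 1.89 on its 3 probe sets. Spock2, a secreted testican, was at the floor in the control and reached 33.4, at least 1.55-fold higher. Tgfbr3, encoding the TGF-beta co-receptor betaglycan, had a log2 ratio of 0.43. The basement membrane gene Col18a1 was lowest at −0.46, with −0.49 on its second probe set, followed by agrin (Agrn) at −0.25.

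Chains start from a linker built on the core protein. Of 6 measured linker genes, 5 lay within 1.5-fold, and the xylosyltransferase gene Xylt2 went from 28.4 to 45.6 (0.68) near the floor. The chain is then extended by the exostosin polymerase, a complex of the Ext1 and Ext2 products. Ext1 went from 872 to 1425, a log2 ratio of 0.71 on its single probe set, while its partner Ext2 gave 702 and 667 (−0.07). Extl2, an exostosin-like transferase that can end chain growth, was lower on both probe sets, at −0.42 and −0.58.

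Enzymes that sulphate and reshape the chain had a median of −0.08 over 9 measured of 16 listed, which was 0.11 with lower floors or none, with 0 at least 1.5-fold higher and 1 lower. That gene was Hs3st6, a 3-O-sulphotransferase, at −0.71 from a dim 73.2. The 6-O-sulphotransferase genes differed from each other, Hs6st1 at 0.53 from a dim 70.2 and Hs6st2 at −0.46 on its brighter and −0.12 on its other probe set. Of 7 measured genes that supply the sulphate donor, 6 were below 0 and 0 passed 1.5-fold. Their median was −0.22, beside −0.06 for all measured genes. Papss1, one of the donor synthases, went from 1307 to 895.5 (−0.55), while the other synthase gene, Papss2, had 0.06.

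Outside the cell, the endosulphatases Sulf1 and Sulf2 remove 6-O-sulphate groups from finished chains. Sulf1 went from 1006 to 1893 and, on its second probe set, from 601 to 1040, log2 ratios of 0.91 and 0.79. Sulf2 went from 2265 to 1725 on its brightest probe set (−0.39), an x_at type, and gave 0.00 and 0.05 on the others. Sulf1 was therefore past 1.5-fold on both its probe sets and Sulf2 on none. The heparanase gene Hpse, whose product cuts the chains, had −0.30 from a signal of 103.

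Lysosomal enzymes that break heparan sulphate down were all below 0, 7 of 7 measured, with a median of −0.47. Of these, 2 were at least 1.5-fold lower, against 12.1% of all measured genes. The median of all measured genes was also below 0, at −0.06, with a 25th percentile of −0.34. Arsg had −0.89 and −0.25 on its 2 probe sets and Idua, the iduronidase gene, −0.78 and −0.37. Naglu followed at −0.55, and Ids, the iduronate sulphatase gene, had −0.02 on its brightest probe set but −0.87 on the other. Raising the floor to the 65th percentile or to 100 made the median of this list −0.25 or −0.28. Macrophage and osteoclast markers, from cells rich in lysosomes, were lower too, 14 of 16 below 0 with a median of −0.36, summed signals of 21480 (control) and 19670 (phosphate), and none at the floor. Cd14, a lipopolysaccharide receptor gene, went the other way, from 291 to 671 (1.21), and Aif1 was lowest at −0.80. The part of these markers in the lysosomal values was not tested, nor was it for the members.

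**Figure D4:**
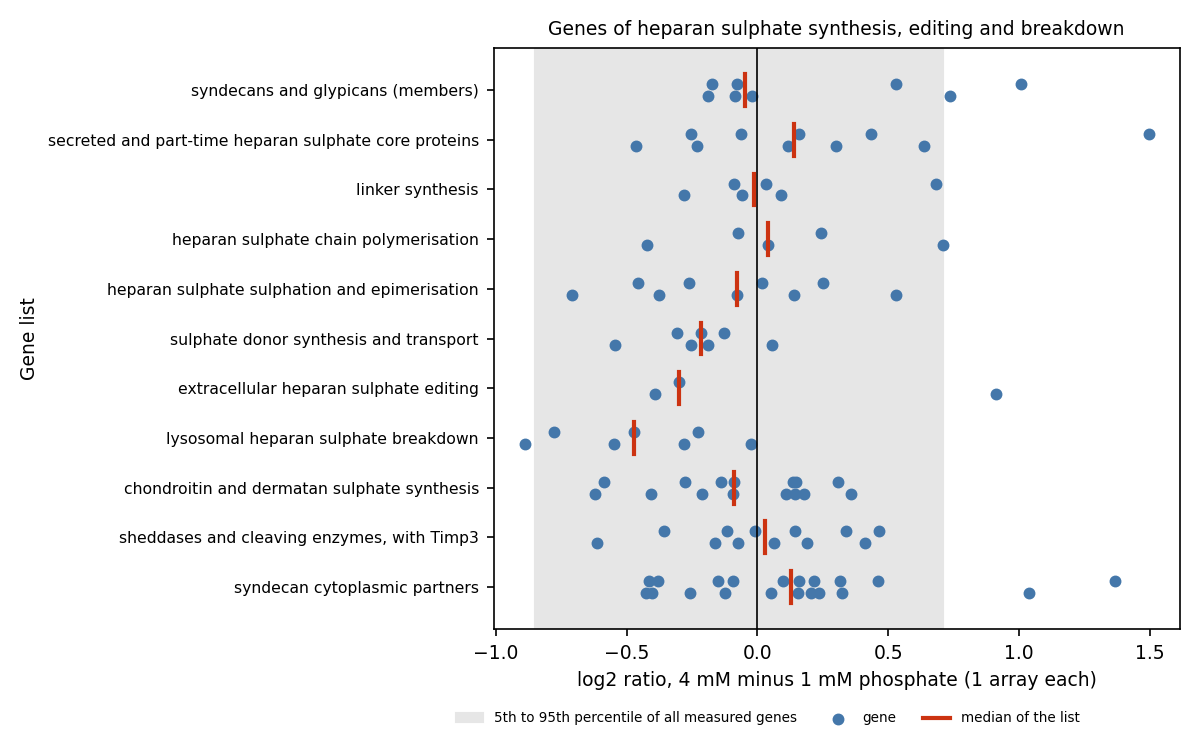
Log2 ratio (4 mM minus 1 mM phosphate) of every measured gene in the member list and 10 further heparan sulphate lists (rows). The median of each list is a vertical bar, and the 5th to 95th percentile of all measured genes is in grey. List medians lie between −0.47 and 0.14, Cd44 is farthest to the right, and all 7 lysosomal genes lie left of 0.

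Syndecan-1 can also carry chondroitin sulphate. Of 15 measured genes that build chondroitin and dermatan sulphate, 0 were at least 1.5-fold higher and 2 lower, with a median of −0.09. These were the sulphotransferase genes Chst14 at −0.62 and Chst13 at −0.59. The highest was the uronyl sulphotransferase gene Ust at 0.36, with −0.33 on its other probe set.

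Syndecans are shed by proteases that cut the core protein near the membrane, and glypicans can be released by cutting the GPI anchor or the core. Of 12 measured genes of this list, 11 lay within 1.5-fold and the median was 0.03. Mmp16, a membrane-bound metalloproteinase, was lower on all 4 probe sets, from −0.61 to −0.36. Timp3, an inhibitor of the sheddases that itself binds heparan sulphate, was higher on all 4, from 0.37 to 0.61, and Adamts4 had 0.41 and 1.02. The gene of Notum, which cuts glypican anchors and is best known as a Wnt deacylase, had −0.16 and was within its technical SD.

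Of 20 measured genes whose products bind syndecan tails or act beside syndecans at adhesions, 2 were at least 2-fold higher and 0 passed 1.5-fold lower, with a median of 0.13. Itgb3, the integrin beta 3 subunit, went from 101 to 260 (1.37) on its single probe set. Pdcd6ip, encoding the endosomal protein ALIX that works with syntenin and syndecans in exosome formation, had 1.04 on its brightest probe set but 0.96, 0.00, −0.25 and −0.48 on the others, so that its direction was not settled. The syntenin gene Sdcbp itself was measured at 3540 and 4433, a log2 ratio of 0.32. The lowest were Gipc1, which binds the tail of syndecan-4, at −0.43, and the kinase gene Src at −0.41.

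Markers of other cells that a calvarial culture could hold were counted in the same way. Of 9 endothelial markers, 8 were at the floor on both arrays, and Erg had −0.23. Chondrocyte markers were present, with all 10 within 1.5-fold, a median of −0.03 and summed signals of 18670 and 18270. Of all measured genes, 80.61% lay within 1.5-fold. Neural and glial markers, relevant to Sdc3, had 3 of 8 at the floor (Gfap, Snap25 and Nefl) and summed signals of 816 (control) and 441 (phosphate). S100b, which chondrocytes and other cells also express, gave most of that sum and went from 614.5 to 258.4 (−1.25). The part of all these markers in the values of the members was not tested.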

How the data were processed

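Affymetrix arrays of 2 RNA samples were analysed, 1 control and 1 phosphate, grouped by their labels. The authors deposited 1 linear intensity per probe set and array. The tools named for it in the submitters' processing notes are GCOS 1.4 and MAS5. MAS5 scales each array by 1 factor. The mean without the lowest and highest 2% was 200.00 on both arrays, so a change of total mRNA per cell would not show. Cells were treated and RNA was extracted and labelled (100 ng) per the labels' protocols. Array annotation naming 1 gene was used for 34945 probe sets, 932 named several and 9160 none. Symbols were checked by Entrez identifier against RefSeq (GRCm38.p6), which held 34741 of them, and 0 changed.

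Values under 21.5 were raised to it before log2 ratios were taken. Each gene was represented by its brightest probe set (mean log2 signal over both arrays). Ratios were counted at 1.5-fold and 2-fold, and a ratio with 1 array at the floor is a bound. The code was tested on simulated data. Python 3.11.15, pandas 2.3.3 and statsmodels 0.14.6 (loess, span 0.3) were used.

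The members and gene lists were chosen with earlier results of these data known. After values were seen, 4 entries with no known link to their list were dropped. Besides the 8 members, genes could be named from a heparan sulphate list if past 1.5-fold or among its 3 highest or 3 lowest, and from a marker list if among its 2 highest or 2 lowest. Not all were. Sdcbp, Gpc2, Gpc5, Epcam, markers at the floor and genes neighbouring a member on the chromosome were named outside that rule. Alternatives comprised 9 settings fixed at the start and 1 added after seeing the data, the brightest probe set on the control array.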

Additional observations from a re-analysis of the deposited data

How the results depend on the processing

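With the poly-A spikes set to equal signal, the median of the 8 members became −0.51, 0 members were at least 1.5-fold higher and 2 (Gpc1 and Gpc6) at least 1.5-fold lower. Of all 11876 genes measured on that scale, 254 were higher and 4965 lower, against 891 and 1489 of 12276 in the main setting. The floor moved both the counts over all genes and the number of genes measured. With no floor, 3280 of 17999 were higher and 3321 lower. When the floor was the pooled 35th percentile, 1613 of 14830 were higher and 1975 lower. When it was the 65th, 540 of 9649 were higher and 913 lower, and at 100, 472 of 8857 were higher and 737 lower. In every one of these floor settings the counts of members stayed at 2 higher and 0 lower, because every brightest probe set was above the floors tried. The choice of probe set moved Sdc2 from 0.53 to 0.01 with the median of probe sets or with the brightest on the control array. The median of probe sets also moved Sdc4 to 1.27 and Gpc4 to −0.35, with Sdc1 at 0.59. Without x_at probe sets, Sdc1 was at 0.53, short of 1.5-fold. Quantile normalization and loess correction left all 8 members within their technical SD of the main value. Of 80 values of single members under the 10 alternatives, 68 stayed within the technical SD of the main value and 12 did not. Many of the 68 were fixed in advance. The floor settings could not move any member, and the choice of probe set could not move Gpc1 or Gpc3, with a single probe set each. Of the 12, 8 came from the spike scaling. Neither Sdc1 nor Sdc4 changed sign, but the floors, the choice of probe set and the spike scaling could not have changed it. All their probe sets were above 0, and the spike shift of 0.46 was smaller than their main values of 0.74 and 1.01. Medians of heparan sulphate lists were less settled. The median of extracellular editing went from −0.30 to 0.27 with no floor, and that of syndecan partners from 0.13 to −0.34 with the spikes as reference. The medians for linker synthesis, polymerisation, sulphation, sheddases and other core proteins also changed sign under at least 1 alternative. No paired analysis was possible because each group has 1 array. With 1 array per group no replicate could be left out, and dim probe sets such as the dimmest of Sdc3 limit what can be read below a signal of 100.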
